A study of Mus musculus with 9 samples.

Results

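The genes described here are 35 proliferation genes read in glomeruli from mice that lack Cosmc in podocytes, 13 of them acting at DNA replication (S phase) and 22 at mitosis. They were taken as the rows of the deposited table that carry their symbols. All 35 were among the 16867 genes listed and the 16764 with enough reads to test. The Cosmc KO group held 4 male C57BL/6 mice of genotype Podo-Cre; Cosmc Y/flox, aged 35, 34, 31 and 30 days for animals 1 to 4. The 5 male C57BL/6 control mice shared no single genotype. Controls 1, 4 and 5 were Podo-Cre; Cosmc Y/+ animals of 35, 30 and 30 days, control 2 was a Cosmc Y/flox animal of 34 days without the Cre label, and control 3 was a Cosmc Y/+ animal of 31 days without it. Cosmc, listed under its symbol C1galt1c1, is an X-linked chaperone needed for the galactosyltransferase that extends O-linked glycans, and Podo-Cre is a recombinase driven in podocytes. Glomeruli were collected whole after bead perfusion, so besides podocytes each RNA sample held the tuft's endothelial and mesangial cells and the parietal cells of the capsule, which the labels do not mark as deleted. In such bulk RNA a change in the number of cycling cells and a change in RNA per cell cannot be told apart.

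A dividing cell first licenses its replication origins, when Cdc6 and its partners load the MCM helicase, and then copies its DNA on the sliding clamp Pcna with nucleotides supplied by ribonucleotide reductase and thymidylate synthase. Cyclin E with its kinase drives that entry. Cyclin A and the B cyclins with Cdk1 then carry the cell into mitosis, where Plk1 and the Aurora kinases, the checkpoint kinases, kinesins and spindle proteins separate the chromosomes and the cell. E2F factors drive many S phase promoters, while many mitotic promoters carry a cell cycle homology region (CHR) and CCAAT boxes, bound by the MuvB complexes and by NF-Y. Mature podocytes are cells that rarely divide, and in the kidney of a young mouse other glomerular cells still do so as the tuft grows.

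Values were normalized read counts, that is, read counts per gene divided by a size factor per library, from 34979570 to 58074717 reads in the Cosmc KO libraries and from 31512284 to 41833719 reads in the control libraries. C1galt1c1 was at 1123, 939, 1030.5 and 751 in Cosmc KO 1 to 4, against 1552, 1508, 1487, 1385 and 1409 in controls 1 to 5. All 4 Cosmc KO libraries lay below all 5 controls (log2 difference -0.63 ± 0.11 SE, adjusted p = 0.0111). Podocyte markers were present in every library, with a summed level over 14 genes of 361139 to 972330 in Cosmc KO glomeruli and 910401 to 1347740 in control glomeruli. Group differences were tested over all genes with limma on log2(value + 1), with Benjamini-Hochberg adjustment and a threshold of 0.05. At that threshold 7.74% of the 16764 genes differed, 4.16% higher and 3.58% lower in Cosmc KO glomeruli.

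Promoter sequences show how the 2 groups of genes differ in a property that the choice of genes did not use. RefSeq's table (GRCm38.p6) held a window of 250 bases upstream to 50 bases downstream of the start for 29 of the 35 genes, 11 S phase and 18 mitotic, and held none for Aurkb, Ccna2, Ccne2, Kif20a, Mcm4 and Tpx2. Both strands of each window were searched. The CHR motif was taken as the letters TTTGAA, or in its other common spelling as TTTAAA. The box bound by NF-Y was taken as CCAAT. The E2F motif was taken as the letters TTCCCGC, and equally as the second spelling TTGGCGC. When it lies on the other strand, the NF-Y box can overlap the second E2F spelling by 4 letters. A CHR match was found in 16 of 18 mitotic windows (88.9%) and 4 of 11 S phase windows (36.4%), against 30.6% of the windows of 27025 genes and 23.3% of those of 11778 tested genes. An E2F match was found in 3 of 18 mitotic windows (16.7%) and 6 of 11 S phase windows (54.5%), against 7.79% of all windows and 13.2% of those of tested genes. CCAAT was frequent in both groups, at 15 of 18 mitotic windows (83.3%) and 8 of 11 S phase windows (72.7%), against 41.1% of all windows and 42.1% of those of tested genes. CHR and CCAAT occurred together in 14 of 18 mitotic windows (77.8%) and 3 of 11 S phase windows (27.3%), against 12.2% of all windows and 9.36% of those of tested genes. These matches describe letters and not bound sites.

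The upstream stretches of 2 mitotic genes and 1 S phase gene show these arrangements, with all 3 motifs in capitals. Cdk1 is shown for its p, the lowest of the mitotic genes, and Ccnb2 and Mcm6 were chosen after the matches were seen. Cdk1 is at chr10:69352939-69353162 on the minus strand, Ccnb2 at chr9:70421555-70421804 on the minus strand and Mcm6 at chr1:128359706-128359955 on the minus strand, and each is printed 5′ to 3′ along its gene.
Cdk1: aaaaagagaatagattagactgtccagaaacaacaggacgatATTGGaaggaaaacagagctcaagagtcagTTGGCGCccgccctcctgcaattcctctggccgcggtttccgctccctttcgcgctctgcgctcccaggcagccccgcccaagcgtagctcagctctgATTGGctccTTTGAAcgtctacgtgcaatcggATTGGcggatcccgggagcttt
Ccnb2: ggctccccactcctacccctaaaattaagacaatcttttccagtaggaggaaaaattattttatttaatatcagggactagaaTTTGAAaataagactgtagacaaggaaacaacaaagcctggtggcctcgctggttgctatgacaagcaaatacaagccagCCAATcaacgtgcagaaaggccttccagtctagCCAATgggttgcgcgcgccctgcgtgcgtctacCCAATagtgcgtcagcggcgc
Mcm6: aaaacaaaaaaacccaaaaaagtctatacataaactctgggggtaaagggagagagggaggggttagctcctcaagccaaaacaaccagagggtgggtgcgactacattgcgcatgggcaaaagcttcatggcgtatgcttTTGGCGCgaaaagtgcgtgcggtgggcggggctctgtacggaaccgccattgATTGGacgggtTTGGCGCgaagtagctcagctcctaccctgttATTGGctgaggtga
The Cdk1 stretch held 1 CHR match, 3 CCAAT matches and 1 E2F match. The Ccnb2 stretch held 1 CHR match and 3 CCAAT matches with no E2F match. The Mcm6 stretch held 2 E2F matches and 2 CCAAT matches with no CHR match.

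A further set of 3 genes is shown because they had the lowest p of their group beside Cdk1, and none of their upstream stretches held a match to any of these letters. Cenpe is at chr3:135212313-135212536 on the plus strand, Ccne1 at chr7:38107535-38107740 on the minus strand and Tyms at chr5:30073626-30073875 on the minus strand.
Cenpe: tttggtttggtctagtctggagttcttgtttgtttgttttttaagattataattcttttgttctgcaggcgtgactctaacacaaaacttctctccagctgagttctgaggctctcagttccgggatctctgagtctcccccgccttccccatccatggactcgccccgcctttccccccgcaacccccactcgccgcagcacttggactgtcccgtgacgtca
Ccne1: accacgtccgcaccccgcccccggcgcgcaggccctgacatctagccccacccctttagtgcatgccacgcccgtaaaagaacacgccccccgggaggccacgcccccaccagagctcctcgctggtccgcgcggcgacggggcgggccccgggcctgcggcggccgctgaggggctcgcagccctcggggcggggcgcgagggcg
Tyms: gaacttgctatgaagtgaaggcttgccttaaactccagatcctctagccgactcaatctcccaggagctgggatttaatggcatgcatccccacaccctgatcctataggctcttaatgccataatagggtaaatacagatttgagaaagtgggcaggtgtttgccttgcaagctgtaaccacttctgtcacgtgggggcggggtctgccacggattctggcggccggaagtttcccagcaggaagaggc
No match says only that these letters are not in this window. The rest of each window, not printed, held 1 CHR and 1 CCAAT match in Cenpe and 1 CHR match in Ccne1.

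Most proliferation genes read higher in Cosmc KO glomeruli, by more for the mitotic genes than for the replication genes, but none of the 35 passed the test in the comparison of the 2 groups. With limma, 0 of 13 S phase genes and 0 of 22 mitotic genes were called, where 4.16% of all genes were called higher. At an unadjusted p under 0.05, 2 S phase genes and 12 mitotic genes were higher and none was lower, where 12.9% of all genes were higher. The log2 difference was positive for 12 of 13 S phase genes, with a median of 0.36 and a range of -0.16 to 1.03, and for 22 of 22 mitotic genes, with a median of 0.70 and a range of 0.43 to 0.89. Among all genes 50.5% had a positive difference. On read counts recovered from the values, edgeR called 0 and 0 of these genes, where it called 4.3% of all genes higher, with 2 S phase and 8 mitotic genes at an unadjusted p under 0.05. DESeq2 on the same reads called 0 S phase genes and 4 mitotic genes higher, where it called 8.55% of all genes. The authors' deposited table also listed 0 S phase and 4 mitotic genes with an adjusted p under 0.05, where it listed 8.58% of all genes as higher. The mitotic genes in the authors' deposited table were Cdk1 (log2 fold change 0.81, adjusted p 0.0217), Cenpe (0.67, 0.0431), Cdc20 (0.84, 0.0434) and Plk1 (0.83, 0.0475).

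Comparing each Cosmc KO animal with the control of the same number, which is also of the same age, gave another count. With the pair number as a block and control 5 left out, 4 of 13 S phase genes and 14 of 22 mitotic genes rose in Cosmc KO glomeruli and none fell, where 9.55% of all genes rose. The S phase genes were Mcm2, Mcm5, Mcm6 and Ccne1. The mitotic genes were Cdk1, Ccnb1, Ccnb2, Bub1, Bub1b, Aurka, Aurkb, Plk1, Kif23, Kif20a, Cenpe, Tpx2, Birc5 and Cdc20. The median log2 differences in this fit, 0.37 for S phase and 0.73 for mitotic genes, were close to those without the block. With age in days as a covariate in place of the block, 1 S phase gene (Ccne1) and 4 mitotic genes (Cdk1, Ccnb2, Cenpe and Cdc20) were called higher, where 4.44% of all genes were. The labels do not say that same-numbered animals were littermates.

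**Figure D1:**
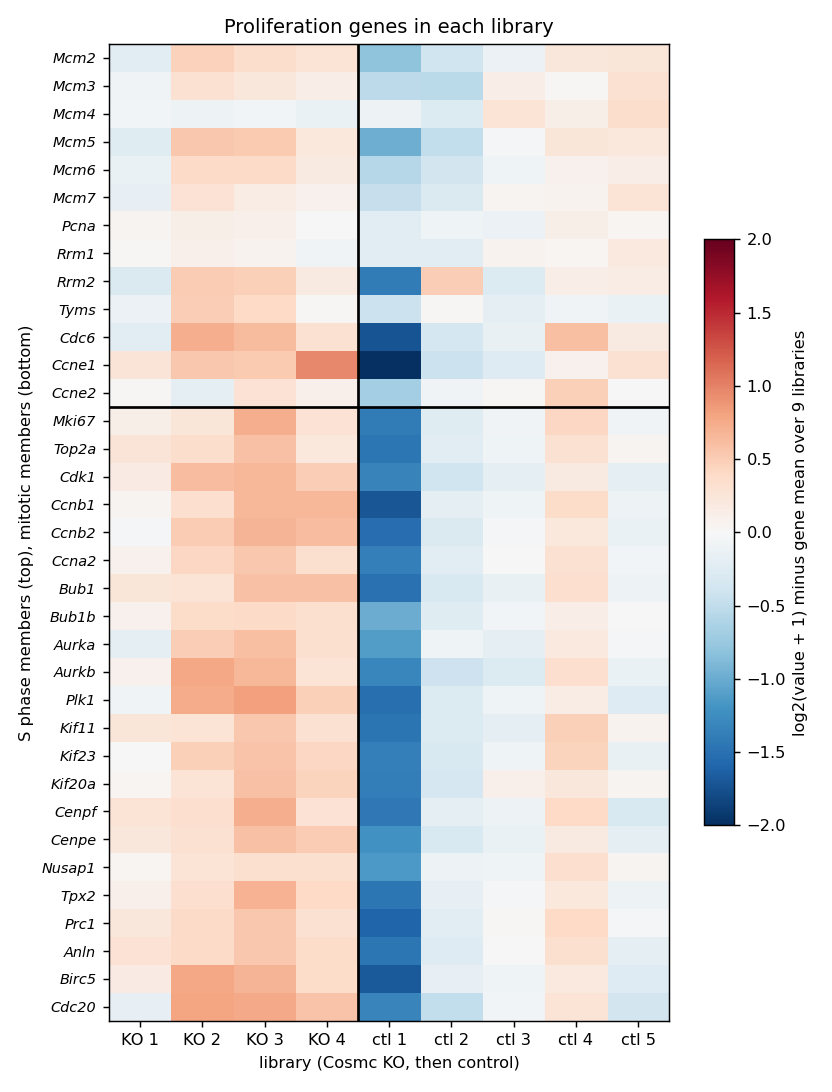
Each row is 1 gene and each column 1 library, with colour giving log2(value + 1) minus the mean of that gene over the 9 libraries, Cosmc KO libraries to the left of the controls. Control 1 is the lowest control for all 22 mitotic genes, and Cosmc KO 3 stands among the highest columns.

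Of the S phase genes, Ccne1, Cdc6 and Mcm5 had the highest log2 differences, none of them called without the block, and Mcm4 had the lowest. Ccne1, which encodes cyclin E1, had 119, 144, 144 and 195 normalized reads in Cosmc KO 1 to 4, against 24.3, 73.8, 83.1, 105 and 123 in controls 1 to 5. Cosmc KO 1 lay just under control 5 and the other Cosmc KO libraries lay above all controls. The log2 difference was 1.03 ± 0.42 (SE; unadjusted p = 0.0337, adjusted p = 0.149), and 1.22 ± 0.27 with the block (adjusted p = 0.0174). Ccne2, the other E cyclin, averaged 272 ± 36.4 in Cosmc KO and 257 ± 69.8 in control glomeruli (SD, n = 4 and 5), and its difference changed sign without control 1 (0.12 with it, -0.0397 without). Cdc6, the loader that brings the MCM helicase to origins, averaged 171 ± 46.3 in Cosmc KO and 119 ± 58 in control glomeruli, a log2 difference of 0.66 ± 0.42 (adjusted p = 0.329, and 0.0952 with the block).

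The 6 MCM genes encode the subunits of the replicative helicase, which work as 1 ring. Their log2 differences ran from -0.16 to 0.46, and differences among the 6 were not tested. Mcm6 had 1283, 1841, 1836 and 1587 normalized reads in Cosmc KO 1 to 4, against 942, 1086, 1332, 1492 and 1548 in controls 1 to 5. Cosmc KO 2, 3 and 4 lay above every control and Cosmc KO 1 lay below 3 of them (log2 difference 0.36 ± 0.17 SE, unadjusted p = 0.0562, adjusted p = 0.192, and 0.0369 with the block). Mcm2 had 1054, 1710.3, 1579 and 1497 in Cosmc KO 1 to 4, against 709, 935, 1137, 1445 and 1455 in controls 1 to 5, and Mcm5 had 782.8, 1343, 1335 and 1080.0 against 474, 659.9, 916, 1104 and 1075. For both, control 1 was the lowest library and Cosmc KO 1 lay among the controls. Their log2 differences were 0.39 ± 0.23 and 0.46 ± 0.27 (adjusted p = 0.284 and 0.282), with block p-values, adjusted over all genes, of 0.038 and 0.0453. Mcm3 and Mcm7 gave 0.27 and 0.16 and passed neither fit. Mcm4 alone of the 6 was lower in Cosmc KO glomeruli, averaging 1115 ± 27.2 in Cosmc KO and 1261 ± 219 in control glomeruli, a log2 difference of -0.16 ± 0.13 that did not pass the test (adjusted p = 0.422). The 4 Cosmc KO libraries held Mcm4 within 1083 to 1139, inside the control range of 978 to 1507.

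Genes of the clamp and of nucleotide supply had log2 differences of 0.06 to 0.40, also not tested against each other. Pcna, the sliding clamp, had 3594, 3759.6, 3715 and 3486 normalized reads in Cosmc KO 1 to 4, against 2978, 3257, 3201, 3745 and 3565 in controls 1 to 5. Its log2 difference of 0.12 ± 0.08 passed neither fit (adjusted p = 0.325, and 0.301 with the block). Rrm1, the large subunit of ribonucleotide reductase, averaged 1828 ± 91.7 in Cosmc KO and 1768 ± 228 in control glomeruli, a log2 difference of 0.06 ± 0.10. Rrm2, the small subunit made mainly in S phase, had 669, 1169, 1145 and 931 in Cosmc KO 1 to 4, against 309.9, 1157, 681, 902 and 909 in controls 1 to 5. The groups overlapped across most of their range (0.40 ± 0.35, adjusted p = 0.475). Tyms, thymidylate synthase, had 449.6, 685, 644 and 497 in Cosmc KO 1 to 4, against 362, 493, 428, 462 and 444 in controls 1 to 5. Cosmc KO 2, 3 and 4 lay above all controls, and the log2 difference was 0.36 ± 0.15 (unadjusted p = 0.037, adjusted p = 0.156, and 0.0797 with the block). Without Cosmc KO 1, Tyms was the only S phase gene called (adjusted p = 0.0364), where 14.5% of all genes were called higher.

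The mitotic kinase Cdk1 had the lowest p of the 35 genes. It had 747, 1021, 1057 and 944 normalized reads in Cosmc KO 1 to 4, against 263, 506, 589.8, 752 and 584 in controls 1 to 5. Cosmc KO 1 lay just below control 4 and above the other controls, and the log2 difference was 0.87 ± 0.27 SE (unadjusted p = 0.00823, adjusted p = 0.0743). Cdk1 rose with the block (0.92 ± 0.18, adjusted p = 0.00956). Its partner Ccnb2, cyclin B2, had 451, 648, 734 and 697 in Cosmc KO 1 to 4, against 158, 373, 444, 527 and 419 in controls 1 to 5. Cosmc KO 1 lay below control 4 alone, and the log2 difference was 0.80 ± 0.32 (adjusted p = 0.146, and 0.0135 with the block). Ccnb1, the other B cyclin, averaged 468 ± 91.3 in Cosmc KO and 298 ± 122 in control glomeruli (adjusted p = 0.201, and 0.0398 with the block). Ccna2, cyclin A2, averaged 1106 ± 139.8 in Cosmc KO and 769 ± 270.5 in control glomeruli and passed neither fit (adjusted p = 0.2, and 0.0537 with the block).

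Plk1 and the Aurora kinases, which act on centrosomes, kinetochores and the spindle, stood higher by 0.56 to 0.89 on the log2 scale. Plk1 had 322, 566, 595 and 472 normalized reads in Cosmc KO 1 to 4, against 117, 280.1, 317, 374 and 284 in controls 1 to 5. Cosmc KO 1 lay below control 4 and the other Cosmc KO libraries lay above all controls (0.89 ± 0.33 SE, adjusted p = 0.118, and 0.011 with the block). Aurkb averaged 436 ± 98 in Cosmc KO and 260.3 ± 97.1 in control glomeruli, and Aurka 420.0 ± 91.8 and 292 ± 84.2, with block adjusted p-values of 0.0347 and 0.0343. Birc5 encodes survivin, which sits in the same complex as Aurora B, and it averaged 386 ± 73.9 in Cosmc KO and 223 ± 84.2 in control glomeruli (0.89 ± 0.34, adjusted p = 0.133, and 0.0328 with the block).

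Genes of the kinetochore and the spindle checkpoint included Cenpe, the only one of the 35 whose groups did not overlap, where 5.83% of all genes were higher without overlap. Cenpe, a kinetochore motor, had 434, 456, 558 and 523 normalized reads in Cosmc KO 1 to 4, against 159.7, 301, 338, 419.6 and 328 in controls 1 to 5. The lowest Cosmc KO library stood just above the highest control (0.73 ± 0.25 SE, unadjusted p = 0.0142, adjusted p = 0.0978, and 0.0242 with the block). Cdc20, the activator of the anaphase-promoting complex, had 610.1, 1186, 1159 and 1018 in Cosmc KO 1 to 4, against 273, 485, 658, 828 and 531 in controls 1 to 5. Cosmc KO 1 lay under controls 3 and 4, and the log2 difference was 0.88 ± 0.31 (unadjusted p = 0.0176, adjusted p = 0.108, and 0.0085 with the block). The checkpoint kinase Bub1 averaged 264 ± 34.3 in Cosmc KO and 166 ± 64.1 in control glomeruli, and its relative Bub1b 731 ± 69.4 and 525 ± 137, both called with the block only (adjusted p = 0.0468 and 0.034). Cenpf, a kinetochore protein, averaged 1035 ± 165 in Cosmc KO and 668 ± 263 in control glomeruli and passed neither fit.

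The motors and the spindle and cleavage proteins were higher by 0.43 to 0.71 on the log2 scale, and 3 of these 7 genes were called with the block. Kif11, the motor that pushes spindle poles apart, averaged 707 ± 70.8 in Cosmc KO and 501 ± 208 in control glomeruli and passed neither fit. Kif23 and Kif20a, motors of the central spindle, averaged 600.5 ± 97 and 609 ± 95.5 in Cosmc KO, against 404 ± 160.0 and 426 ± 151 in control glomeruli, with block adjusted p-values of 0.0483 and 0.0418. Tpx2, which starts spindle microtubules and activates Aurora A, averaged 1059 ± 182 in Cosmc KO and 697 ± 239 in control glomeruli (adjusted p = 0.171, and 0.0363 with the block). Nusap1, Prc1 and Anln, which bind spindle microtubules, bundle the central spindle and organise the cleavage furrow, passed neither fit, with log2 differences of 0.43, 0.66 and 0.71. The proliferation marker Mki67 had 2042, 2208, 3098 and 2279 normalized reads in Cosmc KO 1 to 4, against 708, 1578, 1787, 2507 and 1779 in controls 1 to 5. Control 4 exceeded 3 of the 4 Cosmc KO libraries, and the log2 difference of 0.62 ± 0.31 passed neither fit (adjusted p = 0.222, and 0.072 with the block). Top2a, the topoisomerase that untangles chromosomes, gave 0.64 ± 0.30 (adjusted p = 0.198, and 0.0679 with the block).

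**Figure D2:**
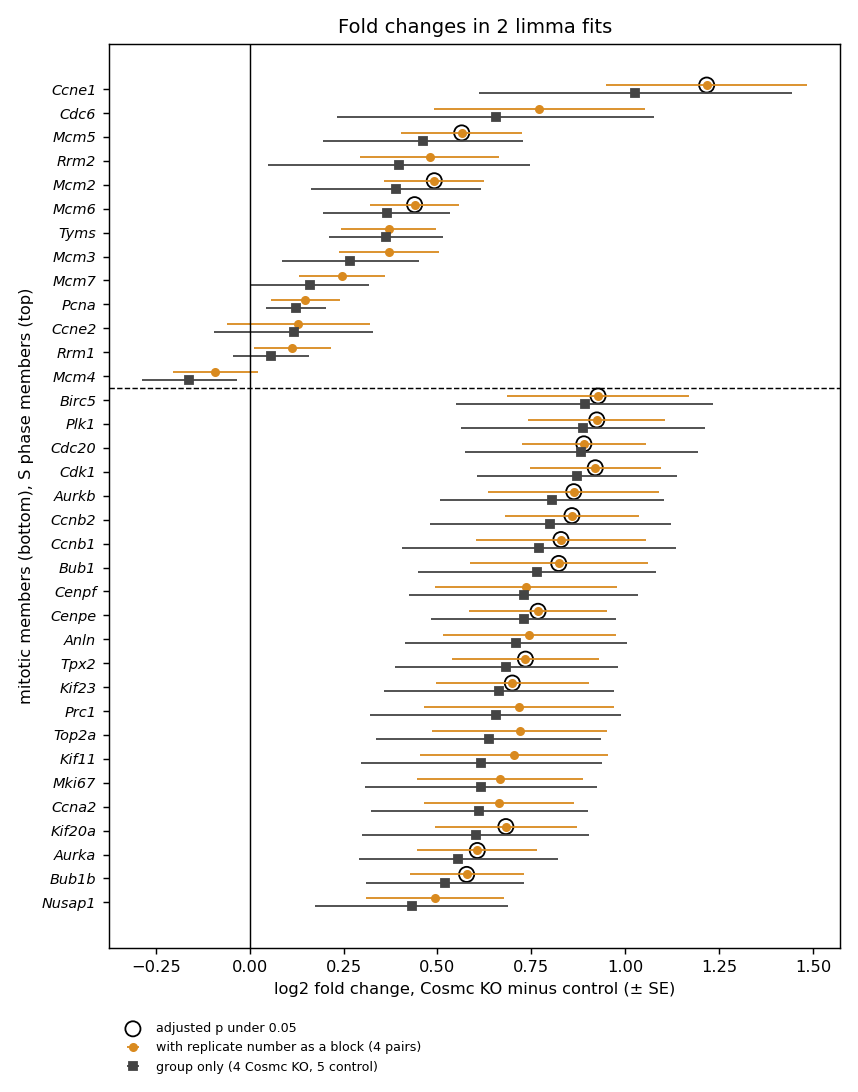
Log2 differences, Cosmc KO minus control, of the 35 genes without the block and with it, with bars of 1 SE. The mitotic genes lie between 0.43 and 0.89 without the block, while the S phase genes spread from -0.16 (Mcm4) to 1.03 (Ccne1).

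Set beside each other, the mitotic genes were further apart between the groups than the replication genes. The mean log2(value + 1) over the 22 mitotic genes was 9.23, 9.57, 9.74 and 9.53 in Cosmc KO 1 to 4, against 7.73, 8.87, 9.04, 9.42 and 9.02 in controls 1 to 5. Group means were 9.52 ± 0.21 in Cosmc KO and 8.82 ± 0.64 in control glomeruli (SD), a difference of 0.70. Over the 13 S phase genes it was 9.50, 9.91, 9.91 and 9.77 in Cosmc KO 1 to 4, against 8.82, 9.36, 9.54, 9.75 and 9.76 in controls 1 to 5. Those means were 9.77 ± 0.19 in Cosmc KO and 9.45 ± 0.39 in control glomeruli, a difference of 0.32. Taking the S phase mean from the mitotic mean within each library gave -0.27, -0.34, -0.16 and -0.24 in Cosmc KO 1 to 4, against -1.08, -0.49, -0.50, -0.34 and -0.74 in controls 1 to 5. Control 4 lay within the Cosmc KO range and the other 4 controls lay below it. The groups differed by 0.38 in this balance (-0.25 ± 0.07 in Cosmc KO and -0.63 ± 0.29 in control glomeruli). It was not tested, as no p was planned for means over lists chosen with earlier results known. The 6 MCM genes, Pcna, Rrm1 and Rrm2, taken singly, gave log2 differences of -0.16 to 0.46, and the 22 mitotic genes of 0.43 to 0.89.

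**Figure D3:**
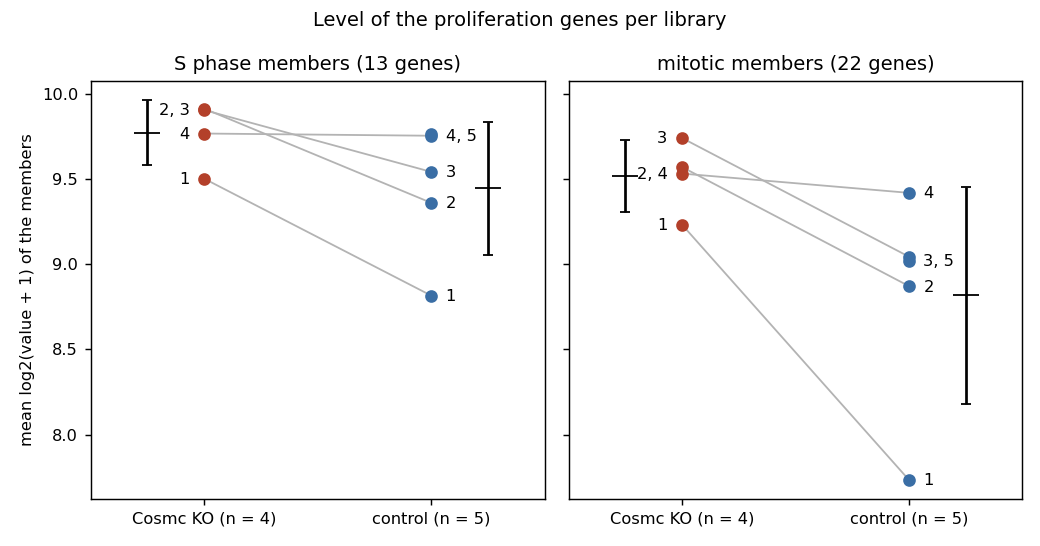
Mean log2(value + 1) over the S phase genes (left) and mitotic genes (right) in each library, with the animal number beside each point, grey lines joining same-numbered animals, and the group mean ± SD. Control 1 is the lowest library in both panels, and the mitotic means of 2 and 4 nearly coincide in Cosmc KO.

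The size of the difference varied by animal number, which runs with age. Between the 30 day animals, Cosmc KO 4 and control 4, the median log2 difference was 0.15 over mitotic genes and 0.02 over S phase genes, with 14 of 22 and 7 of 13 higher in Cosmc KO. Control 5, also of 30 days, was in no pair. Its mean log2(value + 1) over mitotic genes was 9.02, against 9.42 in control 4 and 9.53 in Cosmc KO 4. Over S phase genes it was 9.76, against 9.75 and 9.77, so the mitotic gap at 30 days depended on which control was used. Between the 31 day animals, number 3, the medians were 0.73 and 0.46, with 22 of 22 and 11 of 13 higher. For the 34 day animals, number 2, they were 0.61 and 0.58, with 22 of 22 and 12 of 13 higher. The 35 day animals, number 1, gave the widest gap for mitotic genes, with medians of 1.51 and 0.45 and 22 of 22 and 13 of 13 higher. The 6 MCM genes alone had medians of 0.45, 0.80, 0.28 and 0.04 in the pairs numbered 1 to 4. In pair 2 their median was thus above that of the mitotic genes, and in the other pairs below it. In the pairs numbered 1 to 4, 47.7%, 52.3%, 51.2% and 49.9% of all genes were higher in Cosmc KO. The Cosmc KO animal exceeded its control in all 4 pairs for 14 of 22 mitotic and 7 of 13 S phase genes, where 18.6% of all genes did so. With 1 Cosmc KO animal per age, age and the single animal cannot be told apart.

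Control 1, the oldest control, was the lowest of the 5 controls for 22 of 22 mitotic genes and 10 of 13 S phase genes, where 22% of all genes were lowest there. Control 4, of 30 days, was the highest control for 22 of 22 mitotic genes and for 4 of 13 S phase genes. Control 5, of the same age, had a mitotic mean of 9.02, beside 9.42 in control 4 and 9.04 in the 31 day control 3. Within the Cosmc KO group the 35 day animal was also the lowest, for 21 of 22 mitotic and 9 of 13 S phase genes. The share of all genes was not taken for the counts of control 4 and Cosmc KO 1. Without control 1, the median log2 difference was 0.41 over mitotic and 0.17 over S phase genes, in place of 0.70 and 0.36. In that fit 0 of the 35 were called, where 720 of the 16764 genes were called in either direction. At an unadjusted p under 0.05, limma without control 1 had 16 of 22 mitotic and 1 of 13 S phase genes higher, in place of 12 and 2. The share of all genes at that cut was not taken for this fit. Without pair 1, the block gave medians of 0.47 and 0.35 and called 15 mitotic and 4 S phase genes, where 15.8% of all genes were called higher. Without Cosmc KO 1 and with no block, 3 of 22 mitotic genes (Cdk1, Plk1 and Cdc20, 13.6%) and 1 of 13 S phase genes (Tyms, 7.7%) were called. Neither share exceeded the 14.5% of all genes called higher in that fit.

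**Figure D4:**
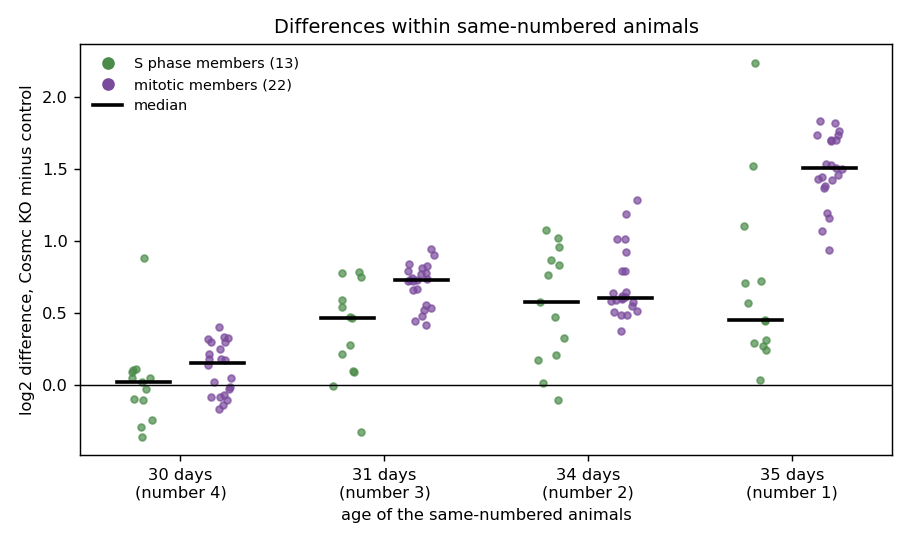
Log2 difference of each gene, Cosmc KO minus the control of the same number, in pairs ordered by age from 30 to 35 days, with a line at each group's median. Control 5, also of 30 days, is in no pair and is not shown. The mitotic medians are 0.15, 0.73, 0.61 and 1.51 in that order and the S phase medians 0.02, 0.46, 0.58 and 0.45.

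Other genes of the replication and mitosis machinery, from lists written for this comparison with earlier results known, split the same way. Of 60 other DNA replication genes, 0 were called by limma in either direction, where 4.16% of all genes were called higher. At an unadjusted p under 0.05, 8 were higher and 2 lower, where 12.9% of all genes were higher. DESeq2 called 2 of them higher, where it called 8.55% of all genes. Their median log2 difference was 0.14, against 0.0035 over all genes. The lowest p-values belonged to Dna2, a nuclease and helicase of Okazaki fragment processing, and Rfc1, the large subunit of the clamp loader, which went opposite ways. Dna2 averaged 198 ± 52.2 in Cosmc KO and 114 ± 30.1 in control glomeruli (0.80 ± 0.25 SE, adjusted p = 0.0837), and Rfc1 averaged 2261 ± 233 in Cosmc KO and 2672 ± 123 in control glomeruli (-0.25 ± 0.08, adjusted p = 0.0911). With the block 9 of the 60 rose and none fell, where 9.55% of all genes rose. Of 79 genes tested from the other mitosis list, 3 rose (3.8%) and none fell, a share no higher than the 4.16% of all genes. Their median was 0.56, with 76 positive. With the block 28 rose (35.4%), where 9.55% of all genes did.

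The 3 genes of the other mitosis list that rose were Gtse1, Cks1b and H2afz. Gtse1, a microtubule-associated protein, had 262, 378, 378 and 292 normalized reads in Cosmc KO 1 to 4, against 107, 124, 240.3, 203 and 178 in controls 1 to 5, with no overlap (0.98 ± 0.25 SE, adjusted p = 0.0422). Cks1b, a small subunit that binds cyclin-dependent kinases, averaged 404 ± 69.7 in Cosmc KO and 228 ± 63.1 in control glomeruli (0.85 ± 0.22, adjusted p = 0.0436). H2afz, a histone variant, averaged 6293 ± 1051 in Cosmc KO and 4267 ± 559 in control glomeruli (0.55 ± 0.13, adjusted p = 0.0358). Leaving out single libraries moved the adjusted p of Gtse1 between 0.018 and 0.13, of Cks1b between 0.019 and 0.129 and of H2afz between 0.00473 and 0.104.

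Genes that set entry to the cycle moved in both directions. Of 26 cell cycle regulators, Myc rose and E2f1 and E2f5 fell, where 4.16% of all genes rose and 3.58% fell. With the block 4 rose and 1 fell, where 9.55% of all genes rose. The calls of E2f1 and E2f5 lay close to the threshold: neither passed with the age covariate or the tubule covariate, and neither passed in 7 of the 9 fits that left out single libraries. Myc, a growth-promoting transcription factor, had 202, 487, 452 and 278 normalized reads in Cosmc KO 1 to 4, against 96.3, 97, 108, 114 and 143 in controls 1 to 5. All Cosmc KO libraries lay above all controls (1.58 ± 0.26 SE, adjusted p = 0.00745, and 0.059 against the 3 Cre-carrying controls only). E2f1, an activator of S phase genes, had 1637, 1243, 1337 and 1659 in Cosmc KO 1 to 4, against 2469, 1984, 1662, 2147 and 2679 in controls 1 to 5, with every Cosmc KO library below every control (-0.57 ± 0.15, adjusted p = 0.0475, 0.0114 with the block, and 0.0205 to 0.14 leaving out single libraries). E2f5, a repressor-type member of that family, averaged 760.3 ± 83.5 in Cosmc KO and 972 ± 59.5 in control glomeruli (-0.36 ± 0.10, adjusted p = 0.0493, 0.0728 with the block, and 0.0101 to 0.146 leaving out single libraries).

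Of 12 cyclin-dependent kinase inhibitors, D cyclins and their kinases, Cdkn2b, Cdkn2d and Cdk6 rose and Ccnd2 fell. Of all genes, 4.16% rose and 3.58% fell. Cdkn2b, an inhibitor of the D cyclin kinases, had 113, 165, 115 and 159.8 normalized reads in Cosmc KO 1 to 4, against 26.4, 34.2, 34, 53.6 and 37.8 in controls 1 to 5. The groups stood well apart (1.88 ± 0.23 SE, adjusted p = 0.00186). Cdk6 gave 0.66 ± 0.13 (adjusted p = 0.0128, and 0.0801 against the 3 Cre-carrying controls only). Cdkn2d, another inhibitor of that family, gave 0.34 (adjusted p = 0.0436, 0.0755 with the block, and 0.0248 to 0.132 leaving out single libraries). Ccnd2, cyclin D2, had 2969, 2271, 2332 and 2926 in Cosmc KO 1 to 4, against 4789.5, 3849, 3813, 4133 and 3744 in controls 1 to 5, all 4 Cosmc KO libraries below all controls (-0.64 ± 0.11, adjusted p = 0.00948). Ccnd1, cyclin D1, gave 0.19 ± 0.08 and Cdkn1c, the inhibitor that marks resting podocytes, -0.24, and neither passed the test (adjusted p = 0.167 and 0.513). Cdkn1a, the p53-induced inhibitor p21, had 7996, 5354, 5400.0 and 2597 in Cosmc KO 1 to 4, against 9442, 4756, 2918, 1322 and 1320.2 in controls 1 to 5. It was highest in the 35 day animal and lowest in the 30 day animals of each group, and the groups overlapped (0.74 ± 0.58, adjusted p = 0.42). Control 1 had the highest Cdkn1a value and the lowest mitotic mean of the controls, and Cosmc KO 1 likewise in its group. Controls 4 and 5, nearly equal in Cdkn1a, had mitotic means of 9.42 and 9.02. Cosmc KO 4, lowest of its group in Cdkn1a, had a mitotic mean of 9.53, below Cosmc KO 2 and 3. A relation between Cdkn1a and the mitotic genes was not tested.

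Markers of several cell types differed between the groups beside the proliferation genes. Of all genes, 4.16% rose and 3.58% fell, and 9.55% rose with the block. Of 14 podocyte markers 8 fell and none rose. The number that fell was 13 with the block, 1 against Cre-carrying controls only and 3 with the tubule covariate. Over all genes and in either direction, those fits called 2790, 438 and 822. Leaving out single libraries, the number of podocyte markers that fell ran from 0 (without Cosmc KO 3) to 13 (without Cosmc KO 1). Over all genes those fits called 523 and 4884, so the marker counts moved with the number of calls in each fit. Of 15 macrophage and monocyte markers 5 rose and none fell (13 rose and 1 fell with the block). DESeq2 called 6 higher and 1 lower, where it called 8.55% of all genes higher. After TMM rescaling, limma called 5 higher and 1 lower, with 1534 of all genes called in either direction. The median log2 difference was 0.72, with a range of -0.63 to 2.58 and 14 of 15 positive. C1qa, C1qb and C1qc were among the markers that rose, at 2.58, 2.38 and 2.34. The mean log2(value + 1) of the macrophage list was 9.28, 9.55, 9.32 and 9.37 in Cosmc KO 1 to 4, against 8.09, 7.89, 8.25, 8.93 and 8.99 in controls 1 to 5, and its summed level ran from 15543 to 19822 in Cosmc KO and from 10135 to 19599 in control glomeruli. Of 10 parietal epithelial markers 5 rose and 1 fell, with a summed level of 17785 to 20975 in Cosmc KO and 8786 to 11944 in control glomeruli.

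Tubule markers varied widely between libraries of both groups. Of 16 proximal tubule markers 0 were called by limma or edgeR, with 5 higher at an unadjusted p under 0.05, against 4 called higher by DESeq2 and 15 with the block. They had a mean log2(value + 1) of 11.08, 13.96, 13.92 and 12.93 in Cosmc KO 1 to 4, against 10.87, 12.62, 12.50, 11.78 and 10.32 in controls 1 to 5, and a summed level of 83831 to 726826 in Cosmc KO and 53571 to 257945 in control glomeruli. Cosmc KO 1, the lowest of its group in mitotic genes, was also the lowest in tubule markers, and control 1 was the lowest but for control 5. With the tubule mean as a covariate the median log2 difference was 0.48 over mitotic and 0.16 over S phase genes, with 0 of 35 called, where 2.96% of all genes were called higher. Of 11 lymphocyte markers 0 were called by limma, edgeR or DESeq2, with 2 lower at an unadjusted p under 0.05 and 1 lower with the block. Of 7 erythroid markers 0 were called by limma or edgeR, with 6 lower at an unadjusted p under 0.05, 2 called lower by DESeq2 and 5 with the block. Among 12 endothelial markers 2 rose, among 12 mesangial and vascular muscle markers 3 rose and 1 fell, and 1 of 11 distal nephron markers fell (with the block, 1, 3 and 2 fell in these lists). The block called 2790 of all genes in either direction, against 1298 without it. No marker of these lists was at 0 in any library, and the part of these cells in the proliferation genes' values was not tested.

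Some genes share sequence with a neighbour in the annotation. A coding gene on the opposite strand overlaps Mcm7 (Ap4m1 and Cops6), Ccne2 (Ints8), Ccna2 (Exosc9), Kif20a (Cdc23), Nusap1 (Oip5), Prc1 (Rccd1) and Cdc20 (Elovl1). Whether reads were counted by strand is not given in the sources used here. Reads from the shared stretches therefore cannot be told apart between those genes and their partners. Pseudogenes of Pcna and Ccnb2 are listed in the table as genes of their own.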

How the data were processed

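Polyadenylated RNA from bead-isolated glomeruli of 9 mice was sequenced with paired reads, per the labels. Of the tools used upstream, the submitters' processing notes list DESeq2, featureCounts, Subread (1.5.2) and STAR (2.5.2b), with build GRCm38 and no roles. The deposited signal values are normalized read counts. That they are gene counts divided by a size factor per library was inferred from the step between values. The deposited table also holds the authors' own comparison, with a mean normalized count as a score, a log2 fold change and its error on the log2 scale, a test score and p-values. Annotation was GENCODE for GRCm38.

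Values were compared, by groups taken from the labels, with limma 3.58.1 in R 4.3.3 on log2(value + 1), over the 16764 genes that reached 10 in 4 or more libraries, with Benjamini-Hochberg adjustment; SE is limma's standard error. Replicates were separate animals, per the labels. The deposited values came out as whole multiples of 1 read in 100% of cases (tolerance 0.01 of a read), so read counts were recovered for edgeR 4.0.16 and DESeq2 1.42.0; control 3's size factor is so near 1 that its scale could not be told from no scaling, and both tools were also run without it. edgeR had been planned as the main test had raw counts been deposited.

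Same-numbered animals share an age. Across genes, r between the deviations of same-numbered libraries was 0.54, 0.51, 0.34 and 0.27 for numbers 1 to 4, and for 2 Cosmc KO libraries the highest r was with the control of that number. Results with the block are printed where the call changes. Alternatives were other tools, TMM rescaling, pseudocounts of 0.5 and 4, no filter, a filter of 1 CPM, Cre-carrying controls only, age or tubule covariates, the block, and leaving out each library.

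The genes and lists were chosen with earlier results of these data known. Libraries' values are given for the 3 genes of each group with the lowest p, and for others the results turn on. From each pathway list up to 4 called genes of the largest change were named, or the 2 of lowest p where none was called, beside C1galt1c1, Cdkn1a, Cdkn1c and Ccnd1. Promoter windows came from RefSeq, with transcribed bases trimmed from the printed stretches.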

Additional observations from a re-analysis of the deposited data

Results flagged for a closer look

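Among 136 sets of 4 or 5 libraries screened for a library standing apart, 3 held one, and chance alone flags about 1 set in 20. In Cosmc KO glomeruli Cenpf was highest in Cosmc KO 3, at 1282 normalized reads, with the other 3 Cosmc KO libraries between 936 and 975. Among controls, the parietal-list gene Ptgds was highest in control 3, at 272, and the distal nephron gene Pvalb was highest in control 2, at 3660.2. No test of the difference between ages or between the S phase and mitotic groups was run.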

How the results depend on the processing

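Over all alternatives the fold changes of the 34 genes other than Mcm4 kept a positive sign in 780 of 782 cases, and no median over S phase or mitotic genes changed sign. The exceptions were Ccne2, whose range leaving out single libraries was -0.0397 (without control 1) to 0.2473 (without control 4), and which was -0.0632 with the replicate block of 3 pairs; of the other named genes Cdkn1c turned to 0.0641 with the tubule covariate. The number of calls depended far more on the setting. For all genes (1298 calls), DESeq2 called 2679, Cre-carrying controls only 438, the tubule covariate 822, the replicate block of 4 pairs 2790 and of 3 pairs 4687, and DESeq2 without control 3 called 2202; leaving out single libraries gave 523 to 4884, the highest without Cosmc KO 1. S phase genes called higher (0) were 1 with the age covariate, 4 with either block and 0 to 1 leaving out single libraries. Mitotic genes called higher (0) were 4 with DESeq2, 4 with age, 14 with the block of 4 pairs, 15 with that of 3, 1 with DESeq2 without control 3 and 0 to 3 leaving out single libraries. Other replication genes called higher (0) were 2 with DESeq2, 3 with age, 9 with either block and 0 to 5 leaving out single libraries, and those called lower (0) were 2 with the block of 3 pairs and 0 to 3. Other mitosis genes called higher (3) were 9 with DESeq2, 0 with Cre-carrying controls, 12 with age, 0 with the tubule covariate, 28 and 29 with the blocks, 1 with edgeR and 7 with DESeq2 without control 3, and 0 to 12 leaving out single libraries. Regulators called higher (1) were 3 with DESeq2, 0 with Cre-carrying controls, 3 with age, 4 and 5 with the blocks, 2 with DESeq2 without control 3 and 1 to 4 leaving out single libraries. Those called lower (2) were 1 with Cre-carrying controls, 0 with age, 0 with the tubule covariate, 1 and 4 with the blocks, 1 with edgeR without control 3 and 0 to 7. Kinase inhibitors and D cyclins called higher (3) were 5 with DESeq2, 1 with Cre-carrying controls, 6 with the block of 3 pairs and 1 to 6, and those called lower (1) were 1 to 2. The cause of these shifts was not tested. The block of 3 pairs and the runs without control 3 were added after the data were seen. The 4 Cosmc KO and 5 control libraries, with 1 Cosmc KO animal per age, limit the size of difference that can be called.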
